A study of Mus musculus with 4 samples.

Results

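Nuclei that met a selection for microglia, the resident macrophages of the brain, made up 466 of 56834 nuclei of mouse hippocampus (0.820%, exact 95% interval 0.747 to 0.898), 461 of them outside the pools on PLX5622. They were chosen by their counts of unique transcripts (UMIs). A nucleus was counted as microglial if no more than 20% of its UMIs were mitochondrial, if it held at least 3 UMIs, and at least 10 per 10000 UMIs, of Csf1r, Siglech, Inpp5d, Ikzf1, Runx1 and Selplg in sum, and if it held under 20 UMIs per 10000 of the neuronal genes Syt1 and Snap25. Of 57350 nuclei counted, 516 were over 20% mitochondrial and were left out. The levels of these 6 markers and of Syt1 and Snap25 are therefore part of the choice, and no test of them is reported, although these 8 genes stayed in the table over which p-values were adjusted.

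Nuclei came from 8 pools, each of hippocampi of 3 male mice, with 1 pool for each condition, and all pools were barcoded together by split-pool rounds and divided over 4 sublibraries. Repeated social defeat (RSD, stress) placed an aggressor in the home cage for 2 h on each of 6 nights, controls were left undisturbed, and nuclei were collected 14 h after the last defeat. Control-Vehicle and Stress-Vehicle were C57BL/6 mice, bought at 5 to 7 weeks of age, on AIN-76A chow. Control-PLX5622 and Stress-PLX5622 were mice of the same strain given chow with 1200 mg/kg of PLX5622, an inhibitor of the CSF1 receptor, from 7 days before RSD. Con-IL-1R1+/+ and Stress-IL-1R1+/+ were Cre-negative mice of a line bred in-house, and Con-nIL-1R1-/- and Stress-nIL-1R1-/- were Cre-positive mice of it, whose ages are not given in the sources used here. Cre under Vglut2 removes Il1r1 from glutamatergic neurons and their lineage, so microglia of nIL-1R1-/- mice keep the gene. Isolation used beads against myelin, and nuclei rather than whole cells were read, so cytoplasmic transcripts were mostly lost. The questions that the pools address for microglia are whether PLX5622 removed these nuclei, and whether RSD or loss of neuronal IL-1R1 changed their share or transcripts. No barcode was shared between pools, and no doublet caller was run.

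Microglia depend for survival on signalling through CSF1R, which binds CSF1 and IL-34, and their resting state is held by TGF-beta and by transcription factors such as PU.1 and SALL1. At rest they show the purinergic receptor P2RY12, the fractalkine receptor CX3CR1 and TMEM119, and they clear debris and synapses through complement and phagocytic receptors. Under stress, glucocorticoid hormone and noradrenaline reach them, and they can release cytokines such as IL-1beta.

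PU.1 (Spi1) is an ETS factor that binds sites with a GGAA core, and the letters GAGGAA were searched on both strands of RefSeq promoters (GRCm38.p6, 250 bases before to 50 after each gene's start). The promoters shown are 3 that hold the letters, from genes that define microglia, while those of P2ry12 and Cx3cr1 hold none: Siglech (a sialic acid-binding lectin and part of the selection, chr7:55767934-55768233, plus strand), C1qb (a chain of complement C1q, chr4:136886151-136886450, minus strand) and Trem2 (a lipid-sensing phagocytic receptor, chr17:48346151-48346450, plus strand). Each is written 5′ to 3′ in the direction of the gene, and capitals mark the match, which reads TTCCTC where it lies on the opposite strand.
Siglech: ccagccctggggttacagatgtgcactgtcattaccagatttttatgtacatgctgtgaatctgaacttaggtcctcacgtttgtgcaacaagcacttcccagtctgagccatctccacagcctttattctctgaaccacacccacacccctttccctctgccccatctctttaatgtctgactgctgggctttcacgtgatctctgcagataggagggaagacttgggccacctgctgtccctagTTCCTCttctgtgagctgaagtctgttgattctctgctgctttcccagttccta
C1qb: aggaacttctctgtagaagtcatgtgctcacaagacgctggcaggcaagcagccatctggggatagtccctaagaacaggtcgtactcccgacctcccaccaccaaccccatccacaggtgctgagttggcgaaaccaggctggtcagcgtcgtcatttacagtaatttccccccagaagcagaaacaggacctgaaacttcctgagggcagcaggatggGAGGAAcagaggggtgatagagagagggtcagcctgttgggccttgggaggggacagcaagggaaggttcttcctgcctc
Trem2: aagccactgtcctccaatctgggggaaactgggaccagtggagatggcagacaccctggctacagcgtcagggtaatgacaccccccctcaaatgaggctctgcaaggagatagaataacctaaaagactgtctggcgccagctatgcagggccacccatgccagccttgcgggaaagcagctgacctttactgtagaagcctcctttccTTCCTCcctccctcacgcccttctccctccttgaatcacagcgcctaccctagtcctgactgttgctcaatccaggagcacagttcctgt
The letters were found in 7652 of 27025 promoters (28.3%) and in 842 of 3059 promoters (27.5%) of genes expressed well enough in microglia to be tested. They were found in 12 of the 22 promoters matched from a list of 32 microglia genes (54.5%), in 3 of 4 promoters matched from an oligodendrocyte list and in 3 of 8 from a neuronal list. A match is a run of letters and not a bound site.

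The 6 pools without PLX5622 held 461 microglial nuclei and 856622 of their UMIs, with a median of 1407 UMIs per nucleus. Control-Vehicle held 60 microglial nuclei (0.708% of its kept nuclei, 0.541 to 0.911) and Stress-Vehicle 74 (1.01%, 0.793 to 1.27). Con-IL-1R1+/+ held 96 (1.27%, 1.03 to 1.55) and Stress-IL-1R1+/+ 89 (1.52%, 1.22 to 1.87). Con-nIL-1R1-/- held 39 (0.599%, 0.426 to 0.818) and Stress-nIL-1R1-/- 103 (1.70%, 1.39 to 2.06). Control-PLX5622 held 3 nuclei that met the selection (0.0406%, 0.0084 to 0.119) and Stress-PLX5622 held 2 (0.026%, 0.0032 to 0.0941). These and all later 95% intervals cover counting error only, and leave out differences between mice and between pools. A few deep nuclei carried much of each sum, since the 10 deepest held from 29.8% of the microglial UMIs in Stress-IL-1R1+/+ to 57.1% in Con-nIL-1R1-/-.

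**Figure D1:**
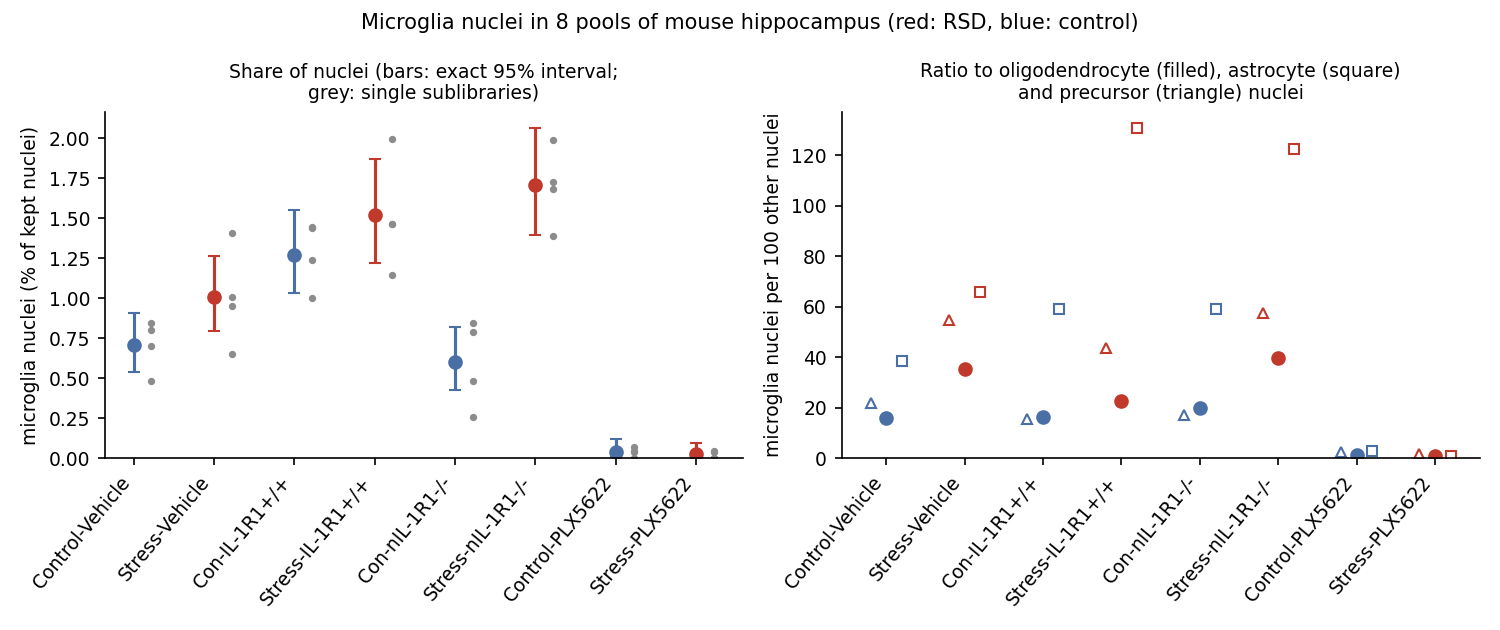
Nuclei that met the selection in the 8 pools (x axis), as a percent of kept nuclei (left, bars give the exact 95% interval and grey points single sublibraries) and per 100 oligodendrocyte, astrocyte or precursor nuclei (right). Blue is control and red is RSD, both PLX5622 pools lie at or under 0.0406%, and each red point on the left lies above its blue partner in the 3 pairs without PLX5622.

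Identity was checked with genes that the selection did not use. Over the 6 pools, Cx3cr1 stood at 475 CPM (counts per 1000000 UMIs of these nuclei) against 5.09 CPM in all other nuclei, a ratio of 93.4. P2ry12 stood at 367 CPM (79.9 times the other nuclei) and Tmem119 at 72.4 CPM (205 times). Mertk, a receptor for apoptotic cells, was 73.0 times and Tgfbr1, a TGF-beta receptor subunit, was 57.6 times the level elsewhere. For the complement and phagocytic genes the ratios were 157 for C1qb, 121 for Trem2 and 180 for Tyrobp. Among genes with at least 100 UMIs in microglia, the highest ratios were those of Crybb1 (291), Cd33 (231), Il10ra (230), Abi3 (222) and Tlr7 (221), and Spi1 itself stood at 186. Since the nuclei were chosen on their transcripts, these ratios describe the choice and carry no test.

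Single nuclei were sparse in these transcripts. At least 1 UMI of Mertk was found in 79.6% of the microglial nuclei, of Cx3cr1 in 51.2% and of P2ry12 in 37.1%. In neuronal nuclei, which should lack these genes and had a median of 3408.5 UMIs, the shares were 4.93%, 2.49% and 2.25%. With every nucleus thinned to 500 UMIs, Mertk was in 54.4% of microglial and 0.662% of neuronal nuclei, and P2ry12 in 19.8% and 0.183%. The thinned shares left out 42 microglial and 1128 neuronal nuclei that were shallower. Oligodendrocyte nuclei, with a median of 1452 UMIs close to that of microglia, held Mertk in 3.33% and P2ry12 in 0.895% before thinning. Of the 461 nuclei, 389 held at least 3 of the 6 selection markers, 8 held only 1, and 382 (82.9%) held Csf1r or Siglech.

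At the threshold of marker UMIs, the 48 selected nuclei with exactly 3 held 9 identity genes (P2ry12, Cx3cr1, Tmem119, C1qa, C1qb, C1qc, Trem2, Tyrobp and Gpr34, summed) at 922 CPM, and the 49 nuclei just outside with 2 held them at 751 CPM. At the threshold of density, 43 nuclei with 10 to 15 marker UMIs per 10000 held them at 338 CPM, and 19 nuclei just outside, with 5 to 10, at 141 CPM. At the neuronal threshold, 118 nuclei with 10 to 20 Syt1 and Snap25 UMIs per 10000 held them at 593 CPM and 133 nuclei just outside, with 20 to 40, at 426 CPM. The level just inside was the higher one at each threshold.

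**Figure D2:**
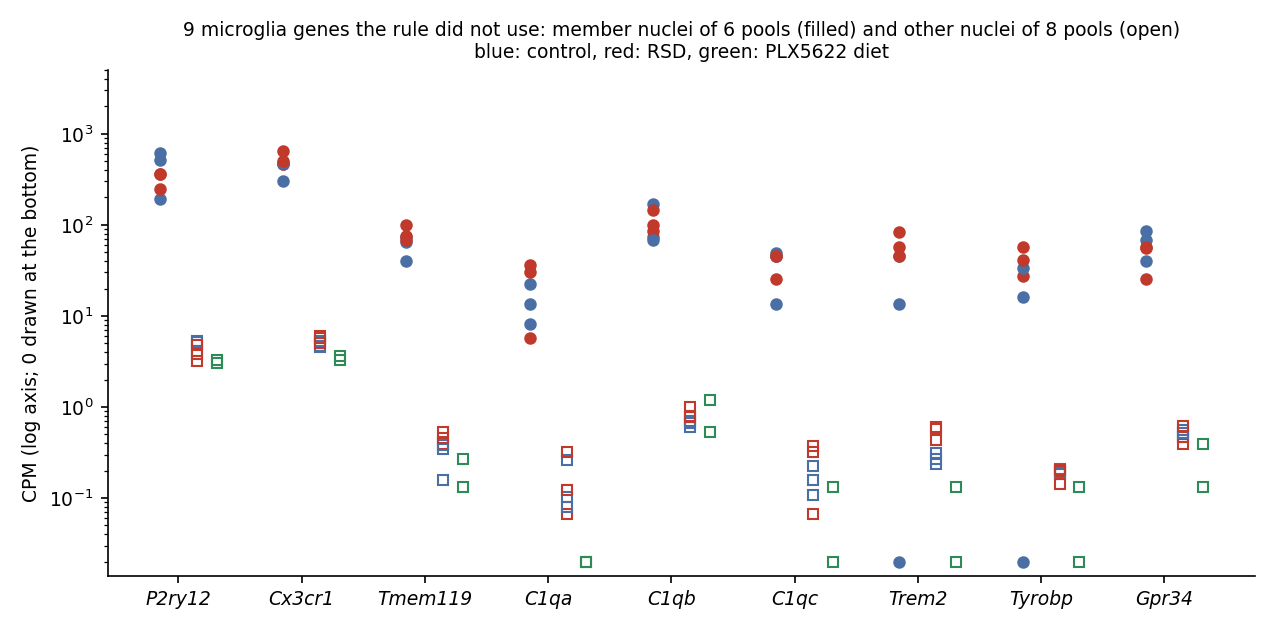
CPM (log axis, with 0 drawn at the bottom) of 9 microglia genes not used for the selection, in microglial nuclei of 6 pools (filled) and in all other kept nuclei of 8 pools (open). Blue is control, red is RSD and green is PLX5622 chow, and for P2ry12 the open points lie between 3.05 and 5.32 CPM in all 8 pools while the filled points lie between 194 and 622 CPM.

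Transcripts of other cells were present too, and fits without nuclei that hold marker lists are given with the results. The neuronal list (10 genes, 2016 UMIs, led by Rbfox3 with 592 and with 581 of Syt1 and 101 of Snap25, which the selection limits) stood at 2049 to 2787 CPM in microglial nuclei of the 6 pools and at 5688 to 7425 CPM in the other nuclei. The oligodendrocyte list (7 genes, 1277 UMIs, led by Mbp with 391) stood at 2689 CPM in Control-Vehicle, 927 in Stress-Vehicle, 1081 in Con-IL-1R1+/+, 1859 in Stress-IL-1R1+/+, 1974 in Con-nIL-1R1-/- and 798 in Stress-nIL-1R1-/-. It was lower after RSD in the vehicle and nIL-1R1-/- pairs and higher in the IL-1R1+/+ pair. The precursor list (5 genes, 522 UMIs, led by Lhfpl3 with 315) was highest in Con-nIL-1R1-/-, at 1460 CPM, and at 351 to 835 CPM in the other 5 pools. The astrocyte list (7 genes, 713 UMIs) rested on the glutamate transporter Slc1a3 with 496 UMIs, while Gja1 and Gfap were at 0 and Aqp4 had 1 UMI. Endothelial (5 genes, 103 UMIs, led by Flt1) and pericyte and leptomeningeal genes (6 genes, 28 UMIs, led by Atp13a5) were rare, and endothelial genes were highest in Stress-IL-1R1+/+ at 325 CPM.

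Blood and border immune cells were searched for in the same way. Of the border macrophage list (10 genes, 414 UMIs), Stab1, a scavenger receptor, gave 306 UMIs (73.9%), in 184 of the 461 nuclei. The more restrictive macrophage genes Mrc1 (41 UMIs), F13a1 (39), Cd163 (11) and Lyve1 (4) were together in 24 nuclei (5.21%), and Pf4 was at 0. They sat mostly in the pools of nIL-1R1-/- mice, where Mrc1 stood at 108 CPM in control and 113 CPM after RSD against 8.10 to 45.3 CPM in the other 4 pools. Of its UMIs there, 4 of 8 in control and 11 of 20 after RSD came from 1 nucleus, and without that nucleus Mrc1 stood at 55.3 and 51.3 CPM. Of the monocyte and neutrophil list (12 genes, 361 UMIs), Csf3r gave 312 UMIs, Ccr2 gave 3, and Ly6c2, S100a9 and Cxcr2 were at 0. The lymphocyte list (14 genes) gave 49 UMIs, led by Il7r with 24, and Cd3e, Cd3d and Cd79a were at 0.

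**Figure D3:**
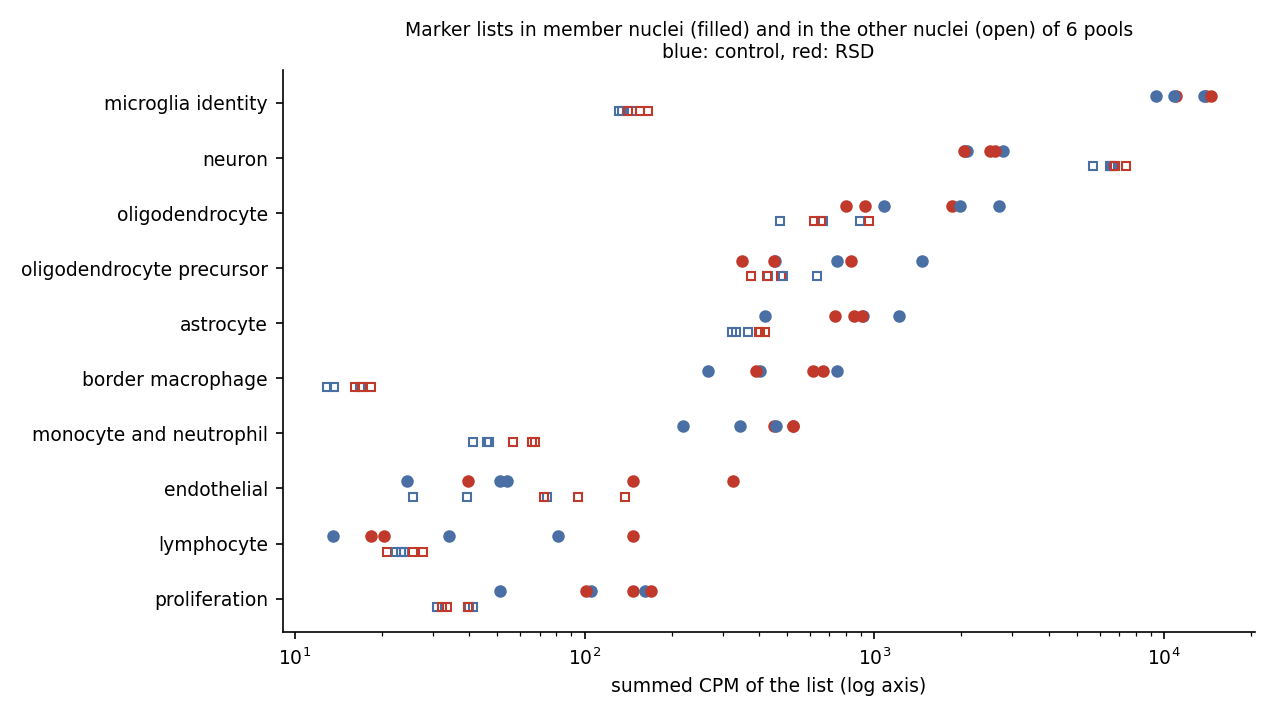
Summed CPM (log axis) of 10 marker lists in microglial nuclei (filled) and in all other kept nuclei (open) of the 6 pools without PLX5622. Blue is control and red is RSD, and the neuronal list, which holds the Syt1 and Snap25 that the selection limits, lies at 2049 to 2787 CPM in microglial nuclei and at 5688 to 7425 CPM in the others.

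PLX5622 chow left few such nuclei. The 2 PLX5622 pools together held 5 nuclei that met the selection against 134 in both vehicle pools, a share 25.5-fold lower (10.7 to 79.9). The log2 ratio to vehicle was -4.12 (-6.44 to -2.51) in controls and -5.28 (-8.35 to -3.37) after RSD. With 1 pool a condition no test between these pools was made. Both PLX5622 pools were also shallower, with median UMIs over all kept nuclei of 598 and 628 against 2563 and 1325.5 in the vehicle pools. When every nucleus was thinned to 500 UMIs and the selection kept as it was, 1 nucleus met it under PLX5622 and 59 in vehicle, a log2 ratio of -5.28 (-10.60 to -2.74). When only 1 marker UMI was asked for at that depth, 29 and 123 nuclei met it, a log2 ratio of -1.48 (-2.12 to -0.89).

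In the sums over all kept nuclei, the 6 selection markers had log2 ratios of PLX5622 to vehicle below 0 over both pairs. These sums hold the selected nuclei, which gave 90 of 220 Csf1r UMIs in Control-Vehicle and 111 of 213 in Stress-Vehicle. For the 6 markers the ratios therefore restate the count of nuclei in part, and are no separate support for it. Csf1r, the receptor the drug inhibits, stood at 5.69 CPM in Control-Vehicle and 14.1 in Stress-Vehicle against 1.70 in Control-PLX5622 and 1.19 in Stress-PLX5622, a log2 ratio of -2.47 (-3.16 to -1.86). The log2 ratio was -2.26 for Siglech, -1.91 for Selplg, the P-selectin ligand, -1.66 for Inpp5d, an inositol phosphatase, and -1.39 for the lymphoid and myeloid factor Ikzf1. Runx1 stood at -0.89 (-1.25 to -0.54) over both pairs, but at -0.16 (-0.62 to 0.27) in controls. Among genes not used for the selection, it was -1.02 (-1.47 to -0.60) for Cx3cr1 and -0.57 (-1.03 to -0.13) for P2ry12, while for Mertk it was -0.03 (-0.17 to 0.11). In such sums, fewer microglia and less RNA per microglial nucleus cannot be told apart. Outside the selected nuclei the 9 identity genes summed to 8.38 CPM in Control-PLX5622 and 7.83 in Stress-PLX5622, below each of the other 6 pools, the lowest of which was Control-Vehicle at 10.7 CPM, with a log2 ratio to vehicle of -0.45 (-0.74 to -0.16).

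The 5 nuclei left under PLX5622 went against the label in part. None held a UMI of Csf1r or Cx3cr1. The 3 of Control-PLX5622, with 841, 2689 and 7011 UMIs, were chosen mostly on Runx1, a factor of several blood lineages, with 4, 6 and 15 UMIs, and held no Siglech, Ikzf1 or Selplg. The deepest of them held 26 UMIs of the adaptor Fyb and 6 of F13a1. In Stress-PLX5622, the nucleus of 505 UMIs held 2 UMIs of Runx1 and 1 each of Ikzf1 and Selplg. The other held 8 of Ikzf1, 2 of Siglech and 41 of a list of interferon and antigen presentation genes among its 2858 UMIs. These 5 are called only nuclei that met the selection, and no level is compared with theirs.

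After RSD the microglial share was higher in each of the 3 pairs without PLX5622. RSD over control gave a log2 ratio of 0.51 (0.0005 to 1.03) in the vehicle pair, 0.26 (-0.18 to 0.69) in IL-1R1+/+ and 1.51 (0.96 to 2.08) in nIL-1R1-/-. The mean was 0.76 (SD 0.66, n = 3 pairs, exact two-sided sign permutation p = 0.25, the smallest that 3 pairs can give). The interval of IL-1R1+/+ included 0. Its ratio was -0.01 without sublibrary 3 and -0.16 without nuclei holding a glial, endothelial or immune list. Con-nIL-1R1-/- had the lowest share of the 6 pools. Relative to that of Con-IL-1R1+/+, the share in Con-nIL-1R1-/- had a log2 ratio of -1.09 (-1.66 to -0.53), and after RSD the genotypes stood at 0.17 (-0.26 to 0.59). As a share of nuclei under the limit on Syt1 and Snap25, which leaves out nuclei rich in these neuronal transcripts, the ratio in controls was -0.28 (-0.86 to 0.27), an interval that includes 0. The share also differed between the IL-1R1+/+ and vehicle pairs, by a log2 ratio of 0.84 (0.36 to 1.33) in controls and 0.59 (0.13 to 1.05) after RSD, although both carry intact Il1r1.

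Ratios to other glia leave out the neurons, whose yield sets most of the denominator. Per 100 oligodendrocyte nuclei there were 15.9 microglial nuclei in Control-Vehicle and 35.6 in Stress-Vehicle, 16.6 and 22.9 in control and RSD of IL-1R1+/+, and 19.8 and 39.8 in those of nIL-1R1-/-. All 3 RSD pools lay above all 3 control pools on this measure, with a mean log2 ratio of 0.88 (SD 0.37, n = 3 pairs, exact permutation p = 0.25). The mean log2 ratio was 0.99 (SD 0.19) per astrocyte nucleus and 1.52 (SD 0.22) per precursor nucleus, higher in 3 of 3 pairs. Over all nuclei under the limit on Syt1 and Snap25 it was smaller, at 0.62 (SD 0.49), and the vehicle pair stood at 0.15 (-0.36 to 0.66). The number of oligodendrocyte nuclei was itself lower after RSD in vehicle (378 and 208) and IL-1R1+/+ (580 and 389) and higher in nIL-1R1-/- (197 and 259). Precursor nuclei were fewer after RSD in all 3 pairs, with 273 and 135 in vehicle, 615 and 204 in IL-1R1+/+ and 228 and 179 in nIL-1R1-/-. Whether more microglia or fewer of the other nuclei moved these ratios cannot be told apart from shares.

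Transcripts of microglia were compared between RSD and control in summed counts of the 3 pairs, with the pair as a term (edgeR quasi-likelihood test, Benjamini-Hochberg adjustment over all genes tested). PLX5622 pools were left out, with fewer than 20 such nuclei each. Of 3859 genes tested, 6 passed an adjusted p of 0.05 (0.155%), 3 higher (0.0777%) and 3 lower (0.0777%), while 203 (5.26%) had an unadjusted p under 0.05. Counted without the 8 genes of the selection, the same 6 of 3851 passed and 202 had an unadjusted p under 0.05. Without the pair term the same test called 0 of 3319 genes, with 204 at an unadjusted p under 0.05. Without nuclei that held at least 3 UMIs and 20 per 10000 of the oligodendrocyte, precursor, astrocyte and endothelial lists, a setting added after the data were seen, 22 to 80 nuclei a pool and 2587 genes were left. There Ccnd3 alone passed (log2 1.68, edgeR adjusted p = 0.0448), Rn7sk stood at 1.39 and Tns1 at 1.51, and mt-Rnr1 and mt-Rnr2 at -0.28 and -0.08. Leaving out also every nucleus with a UMI of a border or blood immune list left 7 to 26 nuclei a pool and 393 genes, none of which passed, but most UMIs of those lists were of Stab1 and Csf3r, which stood 153 and 147 times higher in microglia than in the other nuclei. Leaving out the vehicle, the IL-1R1+/+ or the nIL-1R1-/- pair left 2, 53 and 0 calls. The median log2 ratio of all tested genes was -0.01. The p-values rest on the spread between pools, each a mix of 3 mice, with 2 residual degrees of freedom. Each gene's spread was drawn towards that of other genes, with a weight of 42.7 degrees of freedom. The spread is that of the RSD ratio between pairs unlike in diet, breeding or genotype, and not between repeated pools of 1 condition.

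The 3 genes that rose were the RNA Rn7sk, the cyclin Ccnd3 and the adhesion gene Tns1. Rn7sk (ENSMUSG00002076161, GRCm39 chr9:78082585-78082915, minus strand) is the 7SK RNA, which holds the elongation kinase P-TEFb inactive. It stood at 235 CPM in Control-Vehicle and 1064 in Stress-Vehicle, at 164 and 432 in IL-1R1+/+ and at 324 and 838 in nIL-1R1-/-. All 3 RSD pools lay above all 3 control pools, as did those of 212 of the 3859 genes tested (5.49%). The fitted log2 ratio was 1.60 (SE 0.31, edgeR adjusted p = 0.0104). Ccnd3 (ENSMUSG00000034165, chr17:47815767-47910624, plus strand) encodes cyclin D3, a partner of CDK4 and CDK6. It stood at 988 and 1955 CPM in vehicle, 396 and 1275 in IL-1R1+/+ and 324 and 1528 in nIL-1R1-/-. The groups did not overlap (5.49% of all genes tested in that direction), and the log2 ratio was 1.53 (SE 0.30, edgeR adjusted p = 0.0104). Tns1 (ENSMUSG00000055322, chr1:73949390-74163731, minus strand) encodes tensin 1, which links integrins to actin. It stood at 146 and 395 CPM in vehicle, 73.6 and 269 in IL-1R1+/+ and 81.1 and 334 in nIL-1R1-/-. Each RSD pool again lay above every control pool (5.49% of all genes tested), with a log2 ratio of 1.68 (SE 0.34, edgeR adjusted p = 0.0104).

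These transcripts were found in many nuclei. Ccnd3 was found in 301 of 461 microglial nuclei (65.3%), Rn7sk in 180 and Tns1 in 129 (28.0%). For Ccnd3, 41 of 60 nuclei in Control-Vehicle and 60 of 74 in Stress-Vehicle held a UMI, 41 of 96 and 68 of 89 in IL-1R1+/+, and 14 of 39 and 77 of 103 in nIL-1R1-/-. The shares were higher after RSD in each pair. For Rn7sk they were 11 of 60 and 45 of 74 in vehicle and 22 of 96 and 36 of 89 in IL-1R1+/+, but 19 of 39 and 47 of 103 in nIL-1R1-/-, where the share was not higher. For Tns1 they were 14 of 60 and 25 of 74, 11 of 96 and 35 of 89, and 4 of 39 and 40 of 103 in the same order. Among neuronal nuclei 6.30% held Ccnd3. As a mean over nuclei, in which deep nuclei weigh no more than shallow ones, Ccnd3 had a log2 ratio of 1.51 over the 3 pairs and Rn7sk of 1.33, higher in 3 of 3 pairs each. No gene of the proliferation list (16 genes, 100 UMIs, led by Anln with 26) reached the level needed for the test, and Ccnb1, Bub1 and Melk were at 0.

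The 3 genes that fell were the mitochondrial ribosomal RNAs mt-Rnr1 and mt-Rnr2 and Tmem163, a zinc transporter. mt-Rnr1 stood at 834 and 367 CPM in vehicle, 3618 and 757 in IL-1R1+/+ and 2109 and 1166 in nIL-1R1-/-. It was lower after RSD in each pair but the groups overlapped, with a log2 ratio of -1.51 (SE 0.30, edgeR adjusted p = 0.0104). mt-Rnr2 stood at 2130 and 1275 CPM, 7570 and 1976, and 5164 and 2745 in the same order, with a log2 ratio of -1.26 (SE 0.29, edgeR adjusted p = 0.0469). In Con-nIL-1R1-/- 80 of 156 mt-Rnr1 UMIs and 192 of 382 mt-Rnr2 UMIs came from 1 nucleus, and in Control-Vehicle 47 of 103 of mt-Rnr1. Without the top nucleus of each pool, the mt-Rnr1 pairs stood at -0.57, -1.98 and -0.35 in place of -1.18, -2.26 and -0.86. The mt-Rnr2 pairs then stood at -0.54, -1.72 and -0.55. Microglial nuclei over 5% mitochondrial UMIs numbered 1, 5 and 1 in the control pools and 0, 1 and 1 in the RSD pools, and the log2 ratios without them were -0.50 and -0.46, a filter that acts on these RNAs themselves. Tmem163 stood at 154 and 18.4 CPM, 108 and 15.2, and 122 and 56.6, with a log2 ratio of -2.16 (SE 0.49, edgeR adjusted p = 0.0469). Its RSD pools lay below every control pool, as did those of 214 genes in all (5.55%). It was found in 22 of 461 nuclei, and 17 of its 19 UMIs in Control-Vehicle came from 1 nucleus, without which that pool stood at 18.6 CPM and the groups overlapped.

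**Figure D4:**
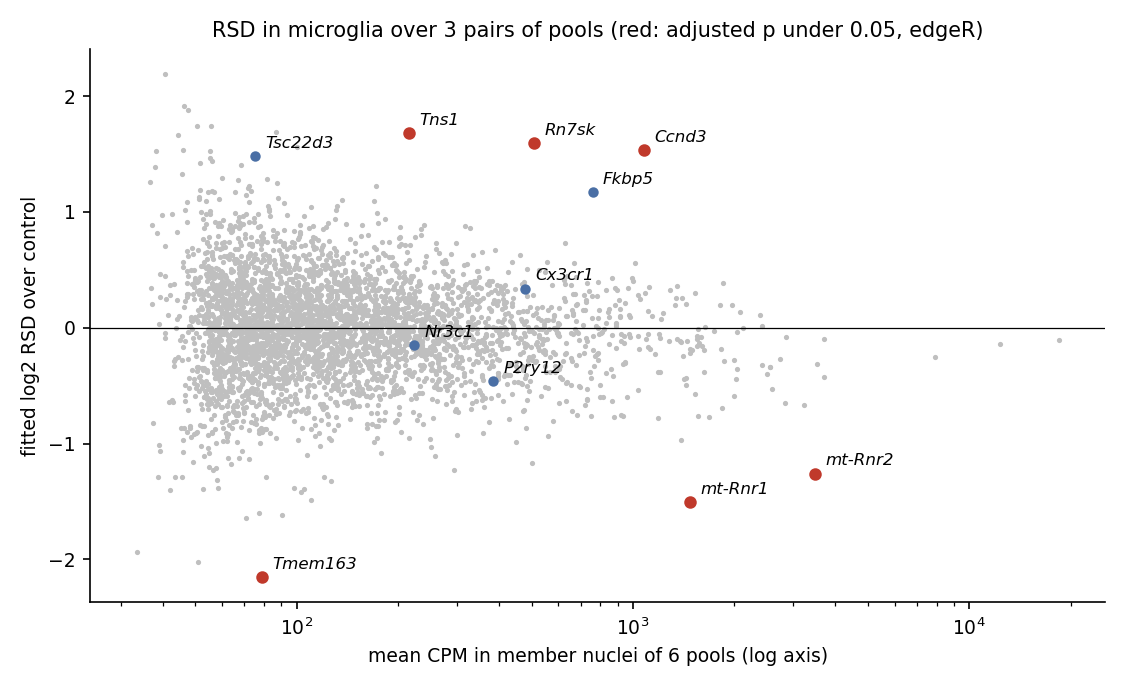
Fitted log2 ratio of RSD to control (y axis) against mean CPM in microglial nuclei (x axis, log) for the 3859 genes tested over 3 pairs of pools. Red points are the 6 genes that passed an adjusted p of 0.05 in edgeR, from -2.16 for Tmem163 to 1.68 for Tns1, and blue points are named genes that did not.

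Genes of the glucocorticoid response were followed because RSD raises the hormone. Of 18 listed genes 8 were tested, none passed, 2 had an unadjusted p under 0.05 with a higher level (2.41% of all genes tested did), and the median log2 ratio was 0.33. Fkbp5 (ENSMUSG00000024222, chr17:28618058-28737521, minus strand), a chaperone partner of the glucocorticoid receptor and one of its targets, stood at 689 and 642 CPM in vehicle, 277 and 1031 in IL-1R1+/+ and 406 and 1505 in nIL-1R1-/-. It was level in the vehicle pair, with a log2 ratio of -0.10 (-0.58 to 0.37), and 1.89 (1.44 to 2.37) and 1.89 (1.34 to 2.49) in the others, so over 3 pairs it reached 1.17 (SE 0.33, edgeR adjusted p = 0.258). It passed without the vehicle pair, at 1.85 (edgeR adjusted p = 0.0442), and over all 3 pairs with nuclei thinned to 1000 UMIs, at 1.34 (edgeR adjusted p = 0.00293). Tsc22d3 (chrX:139440091-139501408, minus strand), which encodes the glucocorticoid-induced leucine zipper, stood at 56.7 and 101 CPM, 34.0 and 142, and 27.0 and 90.5 in the same order. Its RSD pools all lay above its control pools (5.49% of all genes tested did so), on 70 UMIs, with a log2 ratio of 1.48 (SE 0.47, edgeR adjusted p = 0.455). The kinase gene Sgk1 had a log2 ratio of -0.72 and the receptor Nr3c1 of -0.15 (195 UMIs), neither passing the test.

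**Figure D5:**
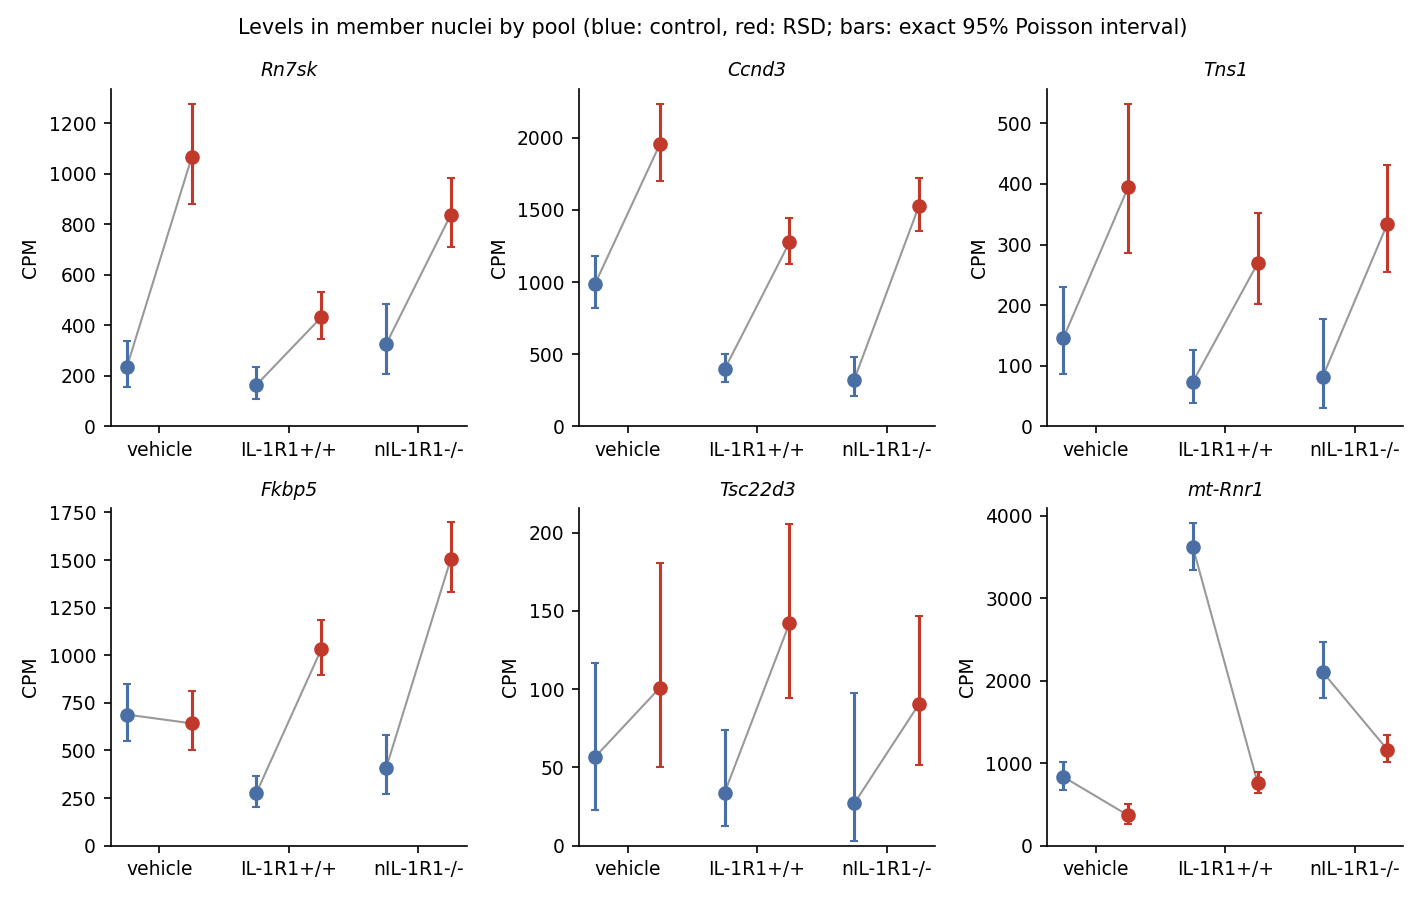
CPM in microglial nuclei of Rn7sk, Ccnd3, Tns1, Fkbp5, Tsc22d3 and mt-Rnr1 in the vehicle, IL-1R1+/+ and nIL-1R1-/- pairs (x axis), blue for control and red for RSD, with exact 95% Poisson intervals of the counts as bars. Ccnd3 is higher after RSD in each pair, while Fkbp5 is level in vehicle (689 and 642 CPM) and higher in the other pairs.

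Genes that mark resting microglia were not called after RSD. Of the 32 identity genes 24 were tested, 15 had a log2 ratio above 0 (48.7% of all genes tested did) and 9 below, none passed, none had an unadjusted p under 0.05, and the median log2 ratio was 0.19. P2ry12 was at 194 and 358 CPM in vehicle, 521 and 249 in IL-1R1+/+ and 622 and 362 in nIL-1R1-/-. It was thus higher after RSD in the vehicle pair, by a log2 ratio of 0.88 (0.11 to 1.68), and lower in the other pairs, at -1.07 (-1.60 to -0.55) and -0.78 (-1.35 to -0.20). Cx3cr1 was at 300 and 652 CPM, 464 and 467, and 473 and 509 in the same order. Of 19 genes of the CSF1R and TGF-beta axis found in the files 15 were tested, none passed, and the median log2 ratio was 0.00, from -0.51 for the integrin subunit Itgav to 0.39 for the transcription factor Irf8. Mef2a, a transcription factor and the second most counted gene of that axis after Tgfbr1, had a log2 ratio of 0.07. Of 19 genes for sensing of purines and transmitters 10 were tested and none passed, with a median of -0.05, from -0.62 for the potassium channel Kcnk13 to 0.37 for the ATP-degrading enzyme Entpd1. The signal regulator Sirpa stood at -0.20.

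Inflammatory genes were mostly too rare to test. Il1b had 0 UMIs in the 461 microglial nuclei. With the limit set at 3 of 461, and not by the exact interval used for other shares, up to 0.651% of nuclei could hold a UMI. Il1r1, the receptor subunit deleted in neurons, had 8 UMIs in 7 microglial nuclei (9.34 CPM against 12.5 in the other nuclei), 4 of them in Stress-Vehicle and none in either nIL-1R1-/- pool. Its partner Il1rap had 130 UMIs (152 CPM against 222 elsewhere) and a log2 ratio after RSD of -0.29 (SE 0.35, not called by edgeR). The cytokine genes Il18 and Il1a had 55 and 23 UMIs and the inflammasome gene Nlrp3 30. Of 29 genes of IL-1, Toll-like receptor and NF-kB signalling 5 were tested, 2 were above 0 and 3 below, and none passed, with a median of -0.15. Nfkb1 had a log2 ratio of -0.15, the adaptor kinase Irak2 of 0.07 and the prostaglandin synthase Ptgs1 of -0.66.

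Of 20 complement and phagocytosis genes 7 were tested and none passed, with a median log2 ratio of 0.30. The integrin subunit Itgb2 had the highest, at 1.46, on 48 UMIs, and was the only one of the 7 with an unadjusted p under 0.05 (2.41% of all genes tested were higher at that p). The Fc receptor gene Fcgr3, named after its values were seen, stood at 0.92 on 60 UMIs, the phospholipase Plcg2 at 0.36, Mertk at 0.30 and C1qb at -0.05. Of 24 genes of disease-associated microglia only the cathepsins Ctsb (0.90) and Ctsd (0.16) and the protease inhibitor Timp2 (-0.17) were tested and none passed, Cst7, Spp1, Clec7a and Gpnmb were at 0, and Apoe had 12 UMIs. Of 28 interferon and antigen presentation genes only the interferon receptor subunits were tested, at 1.33 for Ifnar1 and 0.41 for Ifnar2, and neither passed. The summed level of that list was 235, 408 and 297 CPM in the control pools and 541, 554 and 707 CPM in the RSD pools, led by Ifnar2 with 103 of 416 UMIs. The groups did not overlap, as was so for 5.49% of all genes tested in that direction and for 2 of the 20 lists, the other being the glucocorticoid list. In the glucocorticoid list 1346 of 3097 UMIs (43.5%) were of Mertk, which the complement and phagocytosis list also holds. No immediate early gene reached the test (20 genes, 125 UMIs, led by Nr4a3 with 28 and Nr4a1 with 22).

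Markers of other cells among microglial nuclei also moved with RSD in part. All 6 oligodendrocyte genes tested had a log2 ratio below 0, with a median of -0.69, and 2 of them, with Mbp (-0.71) among them, had an unadjusted p under 0.05 (2.85% of all genes tested did in that direction), none passing the adjusted threshold. Mobp stood at -0.07. All 3 precursor genes tested were below 0 (median -0.44), with Lhfpl3 at -0.98, Ptprz1 at -0.44 and Vcan at -0.27. Of all genes tested, 48.7% had a log2 ratio above 0. The nIL-1R1-/- pair weighed most for Lhfpl3, at 0.08 in vehicle, -0.51 in IL-1R1+/+ and -2.42 in nIL-1R1-/-. It did so too for Ptprz1, at 0.55, 0.11 and -1.93 in the same order. For Vcan the vehicle pair stood lowest, with -1.94, 1.96 and -0.67 in that order. Neuronal genes had a median of 0.14 over the 4 tested (Rbfox3 0.29, Grin1 -0.22, Gad1 0.89) and astrocyte genes of 0.01 over 3 (Slc1a3 0.01, Slc1a2 -0.19). Gad1 had 3 UMIs in control and 22 after RSD in IL-1R1+/+, but 0 and 1 in vehicle and 5 and 3 in nIL-1R1-/-. Of the border macrophage genes Stab1 stood at 0.40, Mrc1 at -0.49 and F13a1 at 0.49, and Csf3r stood at 0.51. No endothelial, pericyte or lymphocyte gene was tested.

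Further genes had small p-values without passing. Higher after RSD were Arhgap15 (a Rac regulator, log2 1.69), Rassf4 (1.56), the immune kinase gene Syk (1.23) and Rassf3 (1.09). In the vehicle pair, Arhgap15 had 4 UMIs in each pool and Rassf4 had 3 in control and 2 after RSD, so these did not rise there. Syk stood at 89.1 and 284 CPM in vehicle, 136 and 168 in IL-1R1+/+ and 54.1 and 306 in nIL-1R1-/-. Its groups did not overlap, as was so for 5.49% of all genes tested in that direction. Lower were Ptprt (-1.23), Cdh4 (-1.62), A230006K03Rik (-1.39) and Mgat4c (-1.11). Ptprt, Cdh4 and Mgat4c each stood lower in microglial nuclei than in the other nuclei, at 0.452, 0.734 and 0.315 times their level.

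To see which changes were shared, the same contrast was fitted in oligodendrocyte and neuronal nuclei of the same pools. This comparison was added after the results above were known. Neuronal nuclei were all those with at least 20 UMIs per 10000 of Syt1 and Snap25, not divided by type. Whether their mix of types differed between pools was not tested. Rn7sk was higher after RSD in neurons too, with a log2 ratio of 1.23 (edgeR adjusted p = 0.0259), and stood at 1.18 in oligodendrocytes (edgeR adjusted p = 0.309). Ccnd3 rose in neurons by 0.68 (edgeR adjusted p = 0.0264), and its difference between microglia and neurons, 0.95 (SE 0.29), did not pass (edgeR adjusted p = 0.451). Tns1 stood at 0.43 in neurons and 0.07 in oligodendrocytes, and its difference from neurons, 1.33 (SE 0.39), did not pass (edgeR adjusted p = 0.402). Fkbp5 stood at 0.40 in neurons and 1.27 in oligodendrocytes. Of 15555 genes, 8 differed between microglia and neurons in their response (0.0514%), among them mt-Rnr1 (difference -1.65, edgeR adjusted p = 1.47e-04) and mt-Rnr2 (-1.42, edgeR adjusted p = 0.0137). In neurons these RNAs stood at 0.30 and 0.28. Against oligodendrocytes, edgeR called 0 of 7051 genes (244, or 3.46%, had an unadjusted p under 0.05). No call of Rn7sk, Ccnd3 or Tns1 was thus shown to be particular to microglia.

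Between genotypes, over control and RSD together, edgeR called 0 of 3859 genes (0%), with 115 at an unadjusted p under 0.05 (2.98%), and DESeq2 called 0. The smallest p was that of Nlrp1b (chr11:71043928-71121559, minus strand), an inflammasome sensor. It stood at 193 and 71.1 CPM in control and RSD of IL-1R1+/+, at 40.6 and 0 CPM in those of nIL-1R1-/-, and at 146 and 275 CPM in the vehicle pools. Its log2 ratio was -3.19 (SE 0.76, edgeR adjusted p = 0.503). The neighbouring pseudogene Nlrp1c-ps (chr11:71133256-71172045) had 0 UMIs in both nIL-1R1-/- pools against 96.3 and 15.2 CPM in IL-1R1+/+ and 113 and 174 CPM in vehicle. The counts were small, in control and RSD in turn. Nlrp1b had 3 and 0 UMIs in nIL-1R1-/-, 34 and 14 in IL-1R1+/+ and 18 and 30 in vehicle. Nlrp1c-ps had 17 and 3 UMIs in IL-1R1+/+ and 14 and 19 in vehicle. Since the gene and the pseudogene are near copies, the division of reads between them is uncertain. Of other cells' markers, Mrc1 (2.09) and F13a1 (2.55) of the border macrophage list had an unadjusted p under 0.05. So did Slc1a2 (-1.34) and Slc1a3 (0.74) of the astrocyte list and 1 gene each of the oligodendrocyte and precursor lists. Of all genes tested 2.98% reached that p, and the part of these markers in the genotype ratios was not tested. Lower without passing were also Cdh18 (-1.56), Slc4a4 (-1.55) and Rgs6 (-1.64), and higher Grik1 (1.84), Nell1 (1.51), Rbpj (1.34), Kcnmb2 (1.65) and Galntl6 (1.17). Rbpj, the DNA-binding partner of Notch, stood at 149 and 283 CPM in nIL-1R1-/- against 62.3 and 107 in IL-1R1+/+.

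The response to RSD in nIL-1R1-/- was compared with that shared by the vehicle and IL-1R1+/+ pairs, in a fit with 1 residual degree of freedom. The nIL-1R1-/- arms hold 1 pool each, so those other pairs supplied all of the spread, and the nIL-1R1-/- pools are assumed to vary like them. Of 4848 genes 1 passed (0.0206%), and 218 had an unadjusted p under 0.05 (4.5%). Gpc6, a glypican of the cell surface, stood at 81.0 and 229 CPM in vehicle, 164 and 173 in IL-1R1+/+ and 460 and 50.9 in nIL-1R1-/-. The difference of its log2 ratios was -3.80 (SE 0.80, edgeR adjusted p = 0.00886). Of its 34 UMIs in Con-nIL-1R1-/-, 16 came from 1 nucleus. Without that nucleus its level in that pool was 263 CPM.

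Pools of intact Il1r1 from the separate experiments also served to show how far like pools stand apart. Between IL-1R1+/+ and vehicle, edgeR called 0 of 3859 genes (0%), 163 had an unadjusted p under 0.05 (4.22%) and DESeq2 called 0. Ccnb1ip1 had the smallest p (log2 -2.80, edgeR adjusted p = 0.0858), with 72.9 and 358 CPM in vehicle and 39.6 and 15.2 in IL-1R1+/+. mt-Rnr1 followed at 1.64 (edgeR adjusted p = 0.132), close in size to its ratio after RSD and opposite in sign. Others with small p-values were Rassf4 (2.35), Epha7 (1.73), Rfx3 (1.35) and mt-Rnr2 (1.25), higher in IL-1R1+/+, and Cpne7 (-1.73), Sirt2 (-2.05), Cramp1 (-1.51) and Atg4a (-1.44), lower. The mice of these pools were bought in one case and bred in-house in the other, and what else differed between the experiments cannot be told apart from this.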

How the data were processed

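The authors deposited counts of UMIs per nucleus and gene as whole numbers without scaling, obtained by running the Parse pipeline against mm39 (per the labels; the annotation release is not given in the sources used here). Seurat 4.1.1 is named in the submitters' notes. Each nucleus took its pool from the authors' table of nuclei, and 0 columns of values were left unmapped. The microglial nuclei and the 20 gene lists were chosen with earlier results of these data known. Coordinates come from GENCODE vM39, in which 56017 of 56748 gene identifiers were found.

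UMIs of microglial nuclei were summed per pool. edgeR 4.0.16 (R 4.3.3) fitted pair and stress with TMM, filterByExpr and the quasi-likelihood test, and DESeq2 1.42.0 was an alternative. Deviations of paired pools from group means correlated at 0.08, -0.15 and 0.03, so pairing rests on shared diet or genotype. On simulated data of 3535 genes the fit recovered 97.0% of genes changed by 2 on the log2 scale (96 of 99) and all 100 changed by 3, with 9 false calls. The changed genes were drawn from the better counted ones, all genes had the same dispersion, and no pair differed from another. Recovery of rarer genes, of smaller changes, or under differences between pairs was not measured. CPM has an exact Poisson interval, shares a Clopper-Pearson interval and ratios a conditional binomial interval (scipy 1.17.1).

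Genes named are the 6 selection markers, 12 chosen genes, those of smallest p in either direction of each contrast (5 where fewer passed), and from each list the 2 with most UMIs and those with the highest and lowest log2 ratio; others were named after their values were seen. A few genes that this rule names are not reported here, and the sum of 9 identity genes was set after the values were seen. Pools on PLX5622 entered no fit of the main results.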

Additional observations from a re-analysis of the deposited data

Results flagged for a closer look

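These results are listed because log2 ratios of RSD to control differed between genotypes or between kinds of nuclei by a test of the difference itself. Between genotypes, Gpc6 had a difference of log2 ratios of -3.80 (edgeR adjusted p = 0.00886), with 16 of 34 UMIs of Con-nIL-1R1-/- in 1 nucleus and with 1 pool in each nIL-1R1-/- arm, so that the other pairs supplied the spread. Between microglial and neuronal nuclei of the same pools, the difference was 2.27 for Tcf7l2, a Wnt pathway factor, and 1.35 for the transcription factor Zfhx3. In neurons these stood at -1.56 and -1.07 and in microglia at 0.36 and 0.14, so each difference lay more in neurons. The neuronal nuclei were not divided by type, and whether their mix of types differed between pools was not tested. It was -1.47 for Arhgap25, which stood at 1.53 in neurons (edgeR adjusted p = 0.00676) and -0.02 in microglia. It was 1.92 for Arhgap15, 2.62 for the transcription factor Ebf1 and 4.54 for 6330411D24Rik, found in 37, 15 and 9 of 461 microglial nuclei. In Stress-Vehicle 8 of 9 Ebf1 UMIs came from 1 nucleus. So did 6 of 11 of 6330411D24Rik in Stress-nIL-1R1-/- and 14 of 32 of Arhgap15 in Stress-IL-1R1+/+. The difference was -1.65 for mt-Rnr1 and -1.42 for mt-Rnr2, and control and RSD pools held unequal numbers of microglial nuclei over 5% mitochondrial UMIs, as given above. No sublibrary of the 8 pools stood apart in its microglial share by Dixon's test.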

How the results depend on the processing

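The 6 calls after RSD depended on the settings. Library size alone in place of TMM gave 3 (3 higher, 0 lower), DESeq2 gave 2, nuclei with at most 5% mitochondrial UMIs gave 3 (3 higher), and 0 were called without the replicate block, with all 4 pairs, or when nuclei holding a glial, endothelial or immune list were left out, where 393 genes remained to be tested. Without nuclei holding a glial or endothelial list, a setting chosen after seeing the data, there was 1 (higher). Nuclei thinned to 1000 UMIs gave 8 (5 higher) and marker UMIs of at least 5 and 20 per 10000 gave 9 (6 lower). Leaving out 1 pair gave from 0 to 53 calls. The lone fit without the IL-1R1+/+ pair called 47 genes lower and 6 higher. Without the deepest nucleus of each pool, a setting chosen after seeing the data, 5 of the 6 calls were kept, and RLE factors kept all 6. Ccnd3 had a log2 ratio of 1.26 to 2.42, Tns1 of 1.19 to 1.89 and Rn7sk of 0.52 to 1.75 over the settings, none changing sign. The call was lost under 4 of 16 other settings for Ccnd3, 7 of 15 for Tns1 and 7 of 16 for Rn7sk. Tmem163 ranged from -2.90 to -1.42 and passed under 1 of the 11 other settings that tested it (RLE factors). For mt-Rnr1 the call was lost with the sign kept under 7 of 16 other settings, and for mt-Rnr2 under 10 of 16. In 1 further setting mt-Rnr1 and mt-Rnr2 reversed, to 1.03 and 1.60, when nuclei holding a glial, endothelial or immune list were left out. The cause was not tested.

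Between genotypes, nuclei thinned to 1000 UMIs gave 1 call (lower) in place of 0. Between experiments, no filter on low counts gave 2 calls and marker UMIs of at least 5 and 20 per 10000 gave 2. The share under PLX5622 moved from a log2 ratio of -4.67 to -1.48 when nuclei were thinned to 500 UMIs and 1 marker UMI sufficed, while it was -5.28 with thinning alone and -3.69 with at least 2 marker UMIs. The mean log2 ratio of the microglial share after RSD ranged from 0.62 to 0.98 over the settings. It was higher in 2 of 3 pairs (exact permutation p = 0.5) without sublibrary 3 (0.66) and without nuclei holding another list (0.98). The pair below 0 was IL-1R1+/+ in both settings. With 39 to 103 microglial nuclei a pool, most inflammatory genes were below the level needed for a test.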
